A study of Mus musculus with 2 samples.

Results

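The genes described here encode proteases of skin and the proteins that hold them in check: the kallikreins, which are secreted serine proteases, the cathepsins, most of which are lysosomal proteases, and the cystatins, stefins, Spink and Wfdc proteins, which are protease inhibitors. Members were taken by gene name from the array: Klk or Spink with a number, Cts with a letter or number, Cst where the probe description says cystatin or stefin, and Stfa1, Stfa2, Stfa3, Wfdc5 and Wfdc12. This gave 68 of the 27578 genes on the array, read by 81 of 41165 probes, of which 45 encode proteases (23 kallikreins and 22 cathepsins) and 23 encode inhibitors. The rule uses gene names and no measured value.

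RNA came from the whole thickness of the dorsal skin of C3H/HeN males aged 61 days, for which the labels give no genetic change and in which new hair growth (anagen) had been induced by depilation 5 days before. FGF18, a secreted fibroblast growth factor, had been injected under the skin at 1 µg on day 4 of anagen, and the skin was collected 24 h later. Control skin received phosphate-buffered saline (PBS) on the same schedule. The series asked which genes respond to FGF18 delivered in this way. One title calls the PBS sample telogen, the resting phase of the hair cycle, whereas its source name and hair cycle entry give anagen, and keratins and other markers of the inner root sheath, a layer of the growing follicle, were measured on both arrays for 9 of 9 genes. The design text describes 1 single-colour Agilent array per group, hybridised with RNA pooled within the group. The labels mention 3 mice but do not say whether that is the number in each group.

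Each array held 43379 gene-probe spots; 62.4% of them were well above background after FGF18 and 61.5% after PBS, and 0 were saturated. With 1 array per group there is no replicate check and no test was made, and it is the small number of arrays that sets the precision. All ratios are log2 of FGF18 over PBS, from processed signals (background-subtracted spot intensity) that were divided by each array's 75th percentile, which was a signal of 1020 with FGF18 and 899 with PBS. The scaling therefore makes an FGF18 signal count for slightly less than an equal PBS signal. The scanner software's own error for a member's log2 ratio was 0.204 for both the lowest and the median probe, and at most 0.392. Many bright probes thus share nearly the same value, and it does not cover the spread between mice. For probes printed at least 8 times, spots of 1 probe scattered less. Their median SD in log2 ratio was 0.032 for signals over 1000 and 0.070 for signals of 100 to 1000. Over the 16610 genes measured on both arrays the median log2 ratio was -0.07, its SD was 0.40, and 62.5% of genes lay below 0.

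In the outermost epidermis, kallikreins are released into the space between cornified cells and cut the desmosomal proteins that bind these cells, so that the surface is shed. They act as a cascade, in which one kallikrein activates another, and Spink5 blocks them. Cathepsins degrade proteins in lysosomes, trim antigens and invariant chain in antigen-presenting cells and take part in cornification and the hair cycle, and cystatins and stefins bind the papain-like cathepsins.

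Proteases as a class were at slightly lower signal on the FGF18 array, with the kallikreins of the epidermal shedding cascade lower and most cathepsins near the median of all genes. Both arrays measured 29 proteases: 0 were higher by 2-fold or more and 3 were lower by that much (Ctse, Klk6 and Klk1b1), where 1.54% and 0.987% of all measured genes passed these folds. The balance rests on the scaling, since 1 protease was higher (Ctss) and 0 were lower without scaling, and 1 was higher and 1 lower (Ctse) with scaling to the median. At 1.5-fold, 1 protease was higher (Ctss) and 8 were lower, against 3.79% and 4.82% of all genes. Of 12 inhibitors measured on both arrays, 0 were 2-fold higher or lower and 3 were at least 1.5-fold lower (Spink5, Cst6 and Wfdc5). The median log2 ratio was -0.24 for proteases and -0.40 for inhibitors, which is -0.17 and -0.33 relative to the median of all genes. The inhibitor median falls between Stfa1 (-0.36) and Stfa3 (-0.43), stefin A genes whose near-identical copies a probe may not tell apart. It therefore leans on genes that may not be separate readings. Over both classes, 3 of the 41 measured members passed 2-fold and 12 passed 1.5-fold in either direction, against 2.53% and 8.61% of all genes. In total 35 of the 41 measured members lay below 0, where 62.5% of all genes did, and the other 6 were Ctsc, Ctsd, Ctso, Ctss, Ctsz and Cst7. This count depends on the scaling: without any scaling between the arrays it was 24 of 41, where 31.1% of all genes lay below 0.

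**Figure D1:**
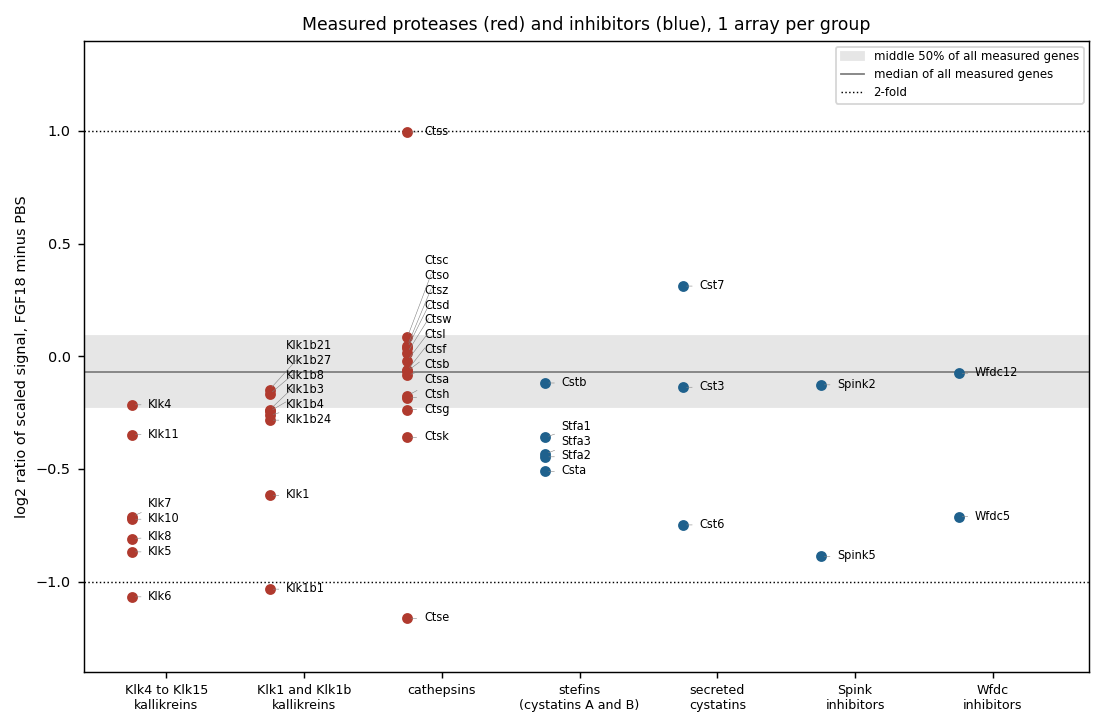
Log2 ratio of scaled signal, FGF18 minus PBS (vertical axis), of each of the 41 members measured on both arrays, arranged by family, with proteases in red and inhibitors in blue. The line is the median of all 16610 measured genes (-0.07), the grey band their middle 50%, and the dotted lines 2-fold; 5 kallikreins of the Klk4 to Klk15 group lie between -1.07 and -0.71 and most cathepsins lie in or near the band.

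The 300-base promoter windows of Klk5, Klk6 and Klk7, 3 kallikreins of the shedding cascade with lower signal, and of Ctss, the protease with the highest ratio, are shown because the array results turn on these genes. The sequences are RefSeq's for build GRCm38.p6, each running from 250 bases before the gene's start to 50 after it, all from genes on the plus strand and written 5′ to 3′. They come from chr7:43842019-43842318 (Klk5), chr7:43824294-43824593 (Klk6, 1 of 2 entries for this gene), chr7:43811044-43811343 (Klk7) and chr3:95526536-95526835 (Ctss). In the kallikrein windows the capitals mark GGGTG or its reverse complement CACCC, the letters of a CACCC box. In the Ctss window they mark GAAA and GAAA spaced by 2 bases, the core letters of an interferon-stimulated response element, and TTTATA, which is the reverse complement of TATAAA.
Klk5: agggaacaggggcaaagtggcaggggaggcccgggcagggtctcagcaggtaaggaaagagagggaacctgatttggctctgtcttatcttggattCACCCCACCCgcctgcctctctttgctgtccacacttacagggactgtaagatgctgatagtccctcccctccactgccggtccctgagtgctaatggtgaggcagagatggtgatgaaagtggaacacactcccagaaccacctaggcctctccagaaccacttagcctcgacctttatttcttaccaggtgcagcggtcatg
Klk6: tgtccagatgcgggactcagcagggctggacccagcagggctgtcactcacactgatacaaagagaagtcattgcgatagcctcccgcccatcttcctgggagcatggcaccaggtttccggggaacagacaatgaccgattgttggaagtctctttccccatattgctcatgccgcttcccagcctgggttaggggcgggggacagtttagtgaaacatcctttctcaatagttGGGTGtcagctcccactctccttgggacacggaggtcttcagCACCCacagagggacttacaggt
Klk7: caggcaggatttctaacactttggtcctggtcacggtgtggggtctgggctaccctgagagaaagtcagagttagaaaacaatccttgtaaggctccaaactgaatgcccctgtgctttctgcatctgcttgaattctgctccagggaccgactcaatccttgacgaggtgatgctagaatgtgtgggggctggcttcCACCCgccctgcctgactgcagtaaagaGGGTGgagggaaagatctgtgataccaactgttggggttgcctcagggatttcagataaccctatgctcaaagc
Ctss: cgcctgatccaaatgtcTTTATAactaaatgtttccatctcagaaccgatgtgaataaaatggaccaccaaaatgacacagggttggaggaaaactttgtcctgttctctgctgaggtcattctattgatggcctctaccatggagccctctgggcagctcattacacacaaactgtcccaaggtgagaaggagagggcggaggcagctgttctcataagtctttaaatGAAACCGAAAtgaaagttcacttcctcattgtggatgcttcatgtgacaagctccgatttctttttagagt

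Entries were found for 54 of the 68 members. Both strands were searched, and no 2 motif matches overlapped in the 4 windows printed. GGGTG occurred in the windows of 9 of 11 genes of the Klk4 to Klk15 group and in 57.5% of all 32851 promoters, so most promoters hold it. The spaced GAAA pair occurred in 3.44% of all promoters and in 2 of 54 members, Ctss and Ctso, a lysosomal cysteine protease. In Ctss it lies from base -21 to base -12, counted from the gene's start. TTCNNNGAA, the letters of a gamma-activated site, occurred in 3 of 54 members and in 8.30% of all promoters. TGANTCA, those of an AP-1 site, also occurred in 3 of 54 and in 7.81% of all. A match describes letters in the window and not a bound site.

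The Klk4 to Klk15 group, the kallikreins outside the Klk1 branch, had the lowest protease median, a log2 ratio of -0.72 over 7 measured genes. All 7 lay below the median of all genes. They also lay below 0, as 62.5% of all genes did. Of the 7, 5 were at least 1.5-fold lower, against 4.82% of all genes, and these 5 were Klk5, Klk6, Klk7, Klk8 and Klk10. Klk5 is a trypsin-like protease that starts the epidermal cascade by activating itself and Klk7. Its processed signal was 1050 with FGF18 and 1690 with PBS, a log2 ratio of -0.87 with a software error of 0.205 (1.83-fold lower). The FGF18 array was the lower one by more than the software error.

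Klk7, the chymotrypsin-like protease that cuts corneodesmosin, was read by 3 probes. Their signals were 23400 with FGF18 and 30400 with PBS for the first, 8760 and 11400 for the second, and 3740 and 6660 for the third. All 3 were lower on the FGF18 array, but not by the same amount: 1.47-, 1.48- and 2.02-fold. The mean log2 ratio was -0.71, and the gap of 0.45 between the lowest and the highest probe was the largest among members with several probes.

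Klk6, a trypsin-like kallikrein of skin and brain, had the lowest ratio of this group. It gave a signal of 817 with FGF18 and 1510 with PBS, a log2 ratio of -1.07 with a software error of 0.205 (2.10-fold lower). Klk8, also called neuropsin, which is made in the upper epidermis, gave 2880 and 4450, a log2 ratio of -0.81 (1.75-fold lower). Klk10, another secreted kallikrein, gave 404 and 588, a log2 ratio of -0.72 (1.65-fold lower). Klk8 and Klk10 differed from Klk5 and Klk7 by no more than the software error of a single probe.

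The other kallikreins of this group were dimmer or closer to the median of all genes. Klk4, known for processing enamel proteins, gave 252 with FGF18 and 258 with PBS, a log2 ratio of -0.22. Klk11, a trypsin-like member, gave 63.2 and 70.9, a log2 ratio of -0.35 with a software error of 0.290, so its distance from the median of all genes lay within that error. Klk12 and Klk9 were well above background on the PBS array only. Klk12 had a signal of 17.0 with FGF18 and 38.1 with PBS and was at least 1.85-fold lower; Klk9 had 21.8 and 32.2 and was at least 1.57-fold lower. These bounds set the PBS value against the lowest FGF18 signal that counted as well above background (23.3). They take the brighter signal as exact, so they are not firm limits. Among probes under 100 printed at least 8 times, the SD of spot log2 ratios was 0.19 at the median and 0.71 at most. Klk14, a trypsin-like activator in the same cascade, and Klk15 were not well above background on either array.

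The second branch, Klk1 and its mouse-specific Klk1b relatives, is known from submandibular gland and kidney, where Klk1 releases kinins from kininogen. Of 12 members, 8 were measured on both arrays, and their median log2 ratio was -0.25. Klk1b3 and Klk1b4, which are the gamma and alpha subunits of nerve growth factor, had log2 ratios of -0.25 and -0.26. The 6 genes Klk1b3, Klk1b4, Klk1b8, Klk1b21, Klk1b24 and Klk1b27 all lay within 0.25 of the median of all genes, between -0.28 and -0.15. The quartiles of all genes were -0.23 and 0.09, and Klk1b3, Klk1b4, Klk1b8 and Klk1b24 lay below the lower one. All 6 genes were on the low side of the median. Their coding sequences are closely similar copies, so a probe named for one may also read others, and these 6 values are uncertain as separate genes.

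Klk1b1 and Klk1 stood lower, but both were dim. Klk1b1 gave a signal of 36.4 with FGF18 and 65.7 with PBS, a log2 ratio of -1.03 with a software error of 0.313 (2.05-fold lower). Klk1 gave 28.6 and 38.7, a log2 ratio of -0.62 with a software error of 0.392, the largest of any member. Klk1b11 was well above background on the FGF18 array only, with 32.9 against 6.49, and was at least 1.20-fold higher by the same kind of bound. Klk1b9, Klk1b16 and Klk1b26 were not well above background on either array. For probes printed at least 8 times and with signals under 100, spots of 1 probe scattered with a median SD of 0.19 in log2 ratio, against 0.032 for signals over 1000.

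**Figure D2:**
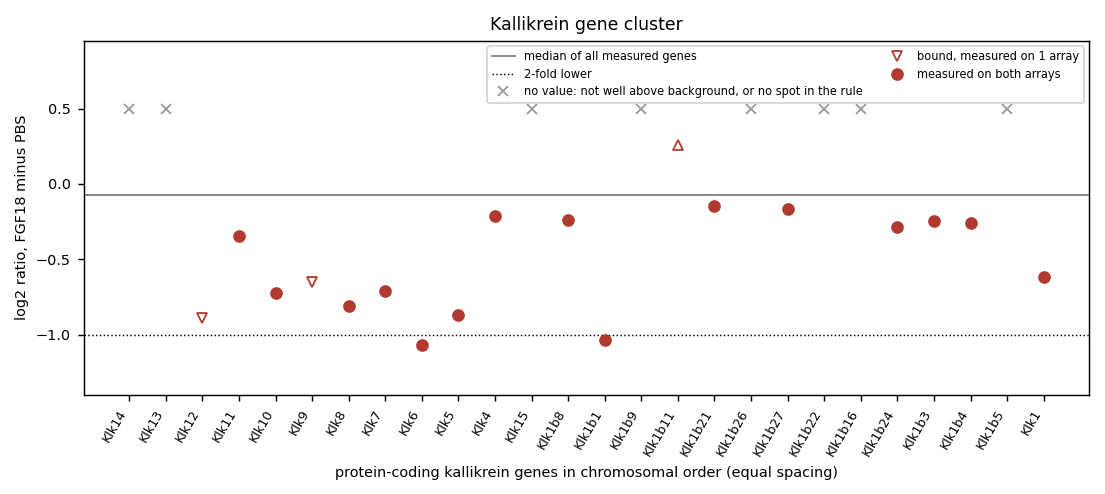
Log2 ratio, FGF18 minus PBS (vertical axis), of the kallikrein genes in their order along mouse chromosome 7 in the RefSeq gene table (horizontal axis, equal spacing). Filled circles are genes measured on both arrays, open triangles are bounds and grey crosses are genes without a value, whose height has no meaning. The genes from Klk10 to Klk5 lie between -1.07 and -0.65, and most measured Klk1b genes lie a little below the median of all genes (-0.07).

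All kallikrein members lie in 1 cluster on chromosome 7. In the order of the RefSeq gene table, Klk10, Klk9, Klk8, Klk7, Klk6 and Klk5 follow each other. The 5 of these measured on both arrays ranged from -1.07 to -0.71, and Klk9 had the bound given above. Klk11 on one side and Klk4 on the other had ratios of -0.35 and -0.22. Lower kallikreins were also found away from this run: Klk12 (a bound, beyond Klk11), Klk1b1 at -1.03 and, at the other end of the cluster, Klk1 at -0.62. Klk13, Klk1b5 and Klk1b22 were not among the spots taken by name.

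Other genes of the cornified layer and its shedding were set beside the kallikreins. The 28 genes listed encode cornified envelope and desmosome proteins, keratins, transglutaminases, lipoxygenases, proteases and other protease inhibitors. They also include a receptor gene (F2rl1) and an antimicrobial peptide gene (Camp). Of these genes 27 were measured, and Elane, a neutrophil protease gene, was not well above background on either array. Over the 27 measured genes the median log2 ratio was -0.39. Of them, 4 were at least 2-fold lower (Flg, Ivl, Cdsn and Casp14) and 1 at least 2-fold higher, and at 1.5-fold 9 were lower and 1 higher. Among all measured genes, 0.987% were lower and 1.54% higher at 2-fold, and 4.82% lower and 3.79% higher at 1.5-fold. The same shares stand beside the counts of the lists below. Cdsn, which encodes corneodesmosin, the Klk7 substrate, gave 1770 with FGF18 and 3170 with PBS, a log2 ratio of -1.02. The lowest was Casp14, a protease of cornification that helps to break down filaggrin, at -1.17. The highest was Slpi, a secreted inhibitor of leukocyte elastase and other serine proteases, at 823 and 294 and a log2 ratio of 1.30.

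Markers of upper epidermis, which overlap this list, were measured on both arrays for 12 of 12 genes. Of these, 6 were at least 2-fold lower and 0 higher, the median log2 ratio was -0.79, the lowest was Rptn at -1.42 and the highest Krt2 at 0.46. Their summed signal was 349510 with FGF18 and 454458 with PBS, a scaled log2 ratio of -0.56. Here and in the lists below, such a sum is set mostly by the brightest probes. It also takes in probes measured on only 1 array, which the separate ratios leave out. Basal epidermal markers had a median of -0.06 over 8 genes and a summed ratio of -0.07, with 0 genes past 2-fold. The part of upper epidermal RNA in the kallikrein values was not tested, and fewer cells of a layer and less RNA per cell cannot be told apart in whole skin.

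Cathepsins differed from the kallikreins in their spread: the median log2 ratio of the 14 measured cathepsins was -0.06, which is 0.0063 above the median of all genes, with 1 gene far above and 1 far below. Ctss, a cysteine protease that cuts the invariant chain of MHC class II in antigen-presenting cells, gave a signal of 37300 with FGF18 and 16500 with PBS. Its log2 ratio was 0.99 with a software error of 0.204 (1.99-fold higher), just under the 2-fold line. It was the highest ratio among all 41 measured members. Ctss passed 2-fold in 6 of 12 alternative settings, in which its log2 ratio ranged from 0.98 to 1.18.

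Ctse, an aspartic protease of endosomes in epithelial and immune cells, had the lowest ratio of all measured members. Its signal was 120 with FGF18 and 237 with PBS, a log2 ratio of -1.16 with a software error of 0.220 (2.24-fold lower). In the alternative settings it ranged from -1.16 to -0.91 and passed 2-fold in 10 of 12.

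The other 12 measured cathepsins lay between -0.36 and 0.08, and 11 of them within 0.25 of the median of all genes. This band is wider than the span between the quartiles of all genes (-0.23 and 0.09). Ctsl, a cysteine protease whose loss in mice disturbs the hair follicle and epidermis, gave 37800 with FGF18 and 34800 with PBS, a log2 ratio of -0.06. Ctsc, which activates granzymes and neutrophil serine proteases, gave 8790 and 7310, a log2 ratio of 0.08. Ctsh, an aminopeptidase of lysosomes, gave 25400 and 25500, a log2 ratio of -0.19. Each of these 3 ratios lay within the software error of the median of all genes. Ctsk, the collagen-degrading protease of osteoclasts that fibroblasts also make, was the lowest of the 12, with 5560 and 6290 and a log2 ratio of -0.36. Fibroblast markers had a median of -0.36 over 12 genes, from Col1a2 at -0.75 to Fbln1 at -0.04, and a summed log2 ratio of -0.34; their part in the Ctsk value was not tested.

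Ctsb and Ctsd each had probes of opposite sign. Ctsb, a cysteine protease that also acts as a dipeptidyl carboxypeptidase, had a probe at 42600 and 35600 (log2 ratio 0.08) and another at 466 and 488 (-0.25). Ctsd, the main aspartic protease of lysosomes, had a probe at 36800 and 34900 (-0.11) and another at 6400 and 5130 (0.14). The probes of Ctsb differed by 0.33 and those of Ctsd by 0.24, so their direction is not settled. Ctsz, a carboxypeptidase, was read by 2 probes at 0.02 and 0.05. Ctsa, a serine carboxypeptidase that protects other lysosomal enzymes, had 3 probes from -0.32 to -0.06.

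**Figure D3:**
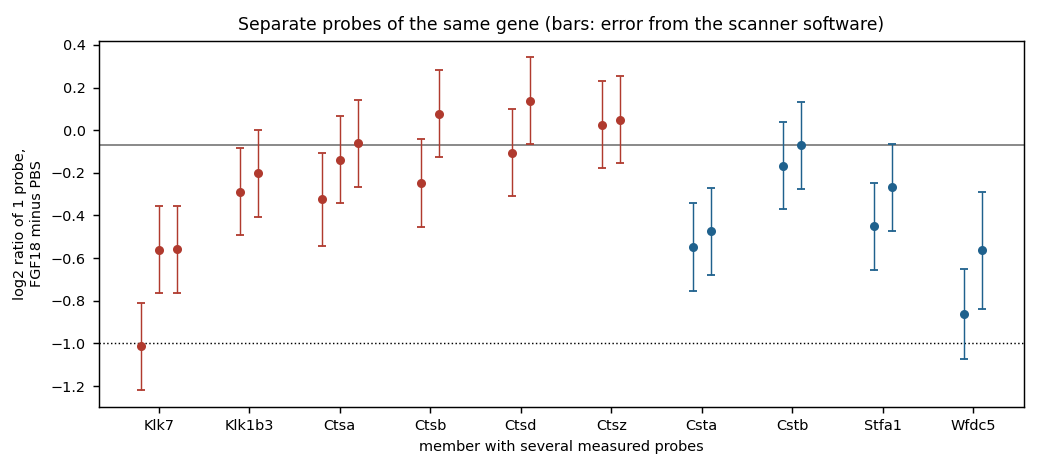
Log2 ratio, FGF18 minus PBS (vertical axis), of each separate probe of the 10 members read by several measured probes; bars are the scanner software's error, the solid line is the median of all genes (-0.07) and the dotted line 2-fold lower. Probes of 8 members share a sign and those of Ctsb and Ctsd do not, and the 3 Klk7 probes span from -1.01 to -0.56.

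Ctsw and Ctsg, which are known from immune cells, were among the cathepsins near the median of all genes. Ctsw, found in cytotoxic lymphocytes, gave 366 with FGF18 and 327 with PBS, a log2 ratio of -0.02. Ctsg, a granule serine protease of neutrophils and mast cells, gave 78.8 and 81.9, a log2 ratio of -0.24. Ctsf and Ctso, lysosomal cysteine proteases, had log2 ratios of -0.07 and 0.05. The 8 placental cathepsins of the mouse (Cts3, Cts6, Cts7, Cts8, Ctsj, Ctsm, Ctsq and Ctsr) were not well above background on either array, with signals of at most 27.6.

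Other lysosomal genes were close to the median of all genes, as most cathepsins were. Of 46 listed lysosomal genes, all measured, 1 was at least 2-fold higher and 0 lower, and the median log2 ratio was -0.06. The highest was Psap, which encodes the precursor of the saposins that help to degrade sphingolipids, at 1.19, and the lowest was Arsb, a sulfatase, at -0.38. Genes of MHC class II presentation, in which Ctss acts, had a median of -0.19 over 9 measured genes, from H2-Oa at -0.46 to Ifi30 at -0.02, with 0 past 2-fold.

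Beside Ctss, immune cell markers differed among themselves. Macrophage markers were measured for 15 of 15 genes: 3 were at least 2-fold higher (Aif1, Fcgr1 and Msr1) and 0 lower, from Mrc1 at -0.70 to Fcgr1 at 2.72, with a median of -0.17. Their summed signal was 38713 with FGF18 and 33530 with PBS, a scaled log2 ratio of 0.03. Dendritic and Langerhans cell markers had a median of -0.16 over 11 genes, from Cd207 at -0.74 to Ccr7 at 0.55, and a summed ratio of -0.22. Markers of cytotoxic lymphocytes had a median of 0.91 over 12 measured genes of 18, with 5 at least 2-fold higher and 0 lower, from Cd3g at -0.49 to Gzmb at 4.44, and a summed ratio of 0.81. In that list 4 further genes were measured on the FGF18 array only, and Cd8a and Eomes on neither. The part of these cells in the Ctss value was not tested.

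**Figure D4:**
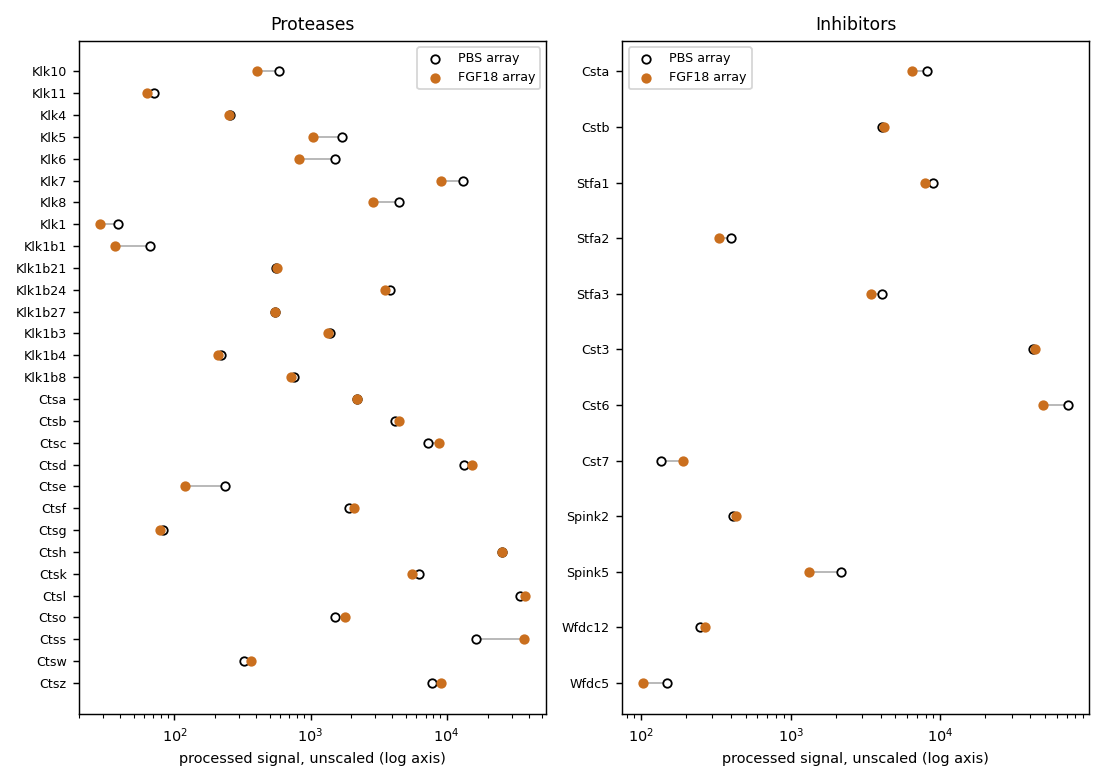
Unscaled processed signal (horizontal log axis) on the PBS array (open circles) and the FGF18 array (filled circles) of the 29 proteases and 12 inhibitors measured on both arrays; members with several probes show the geometric mean. Ctss is the member with the widest gap to the right (37300 against 16500), and Ctse, Klk6, Klk1b1, Spink5 and Klk5 have the widest gaps to the left. Positions of different genes come from different probes and are not comparable as levels.

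Among the inhibitors, Spink5, Cst6 and Wfdc5 were the 3 that were at least 1.5-fold lower. Spink5 encodes LEKTI, which inhibits Klk5, Klk7 and Klk14 and whose loss causes Netherton syndrome. Its signal was 1330 with FGF18 and 2170 with PBS, a log2 ratio of -0.89 with a software error of 0.204 (1.85-fold lower). This differed from the ratio of Klk5, its target, by less than the software error.

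Cst6 encodes cystatin M/E, an inhibitor of cathepsin L and of legumain that is made in the granular layer and the follicle. It gave 48400 with FGF18 and 71700 with PBS, a log2 ratio of -0.75 (1.68-fold lower). A second Cst6 probe was not well above background on either array (4.81 and 4.97), so the value rests on 1 of 2 probes. Ctsl, a target of cystatin M/E, had the ratio of -0.06 given above. Lgmn, which encodes legumain, gave 16900 with FGF18 and 10600 with PBS, a log2 ratio of 0.49.

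Wfdc5 and Wfdc12 encode small secreted proteins with a whey acidic protein domain, which is found in protease inhibitors. The Wfdc5 probes gave 168 with FGF18 and 269 with PBS, and 64.1 and 83.5. Both were lower, by log2 ratios of -0.86 and -0.56, and their mean was -0.71 (1.64-fold lower). Wfdc12 gave 268 and 249, a log2 ratio of -0.08, almost at the median of all genes.

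The stefins, inhibitors of cathepsins inside the cell, were lower by smaller amounts, with a median log2 ratio of -0.43 over 5 genes. Csta, the stefin A gene, had probes at 22700 with FGF18 and 27800 with PBS and at 1870 and 2410, with log2 ratios of -0.47 and -0.55. Stfa1 had probes at 15100 and 18200 (-0.45) and at 4180 and 4440 (-0.27). Stfa2 gave 332 and 399 (-0.45), and Stfa3 gave 3450 and 4110 (-0.43). All 6 probes of these 4 genes were lower on the FGF18 array. The stefin A genes are near-identical copies, so a probe may read several of them, and RefSeq now lists the Csta and Stfa1 accessions under Csta1 and Cstdc6. Cstb, the single stefin B gene, had 2 probes at -0.17 and -0.07 and lay within 0.25 of the median of all genes.

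Stefin A genes are also made by neutrophils, so neutrophil markers were set beside them. Of 15 markers, 8 were measured on both arrays, with a median log2 ratio of -0.30, from Stfa2l1, itself a stefin relative, at -0.77 to S100a8 at 1.82. There was 1 marker at least 2-fold higher and 0 lower, and the summed signal was 3827 with FGF18 and 3202 with PBS, a scaled log2 ratio of 0.08. S100a8 alone gave 986 and 246 of these sums. The largest part of both came from S100a9, at 1640 with FGF18 and 1830 with PBS, a log2 ratio of -0.34. The granule genes Mpo, at 544 with FGF18 and 441 with PBS, and Camp, at 67.9 and 83.1, were measured on both arrays. Mmp8, Cd177 and Lcn2 were measured on the FGF18 array only, and Elane, Ngp, Ltf and Retnlg were not well above background on either array. The part of neutrophils in the stefin values was not tested.

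Apart from Cst7, the remaining inhibitors were near the median of all genes, dim or not detected. Cst3, the widely made secreted cystatin C, gave 43200 with FGF18 and 41900 with PBS, a log2 ratio of -0.14. Cst7, cystatin F, which restrains Ctsc in cytotoxic and myeloid cells, gave 190 and 135, a log2 ratio of 0.31 with a software error of 0.223, the only inhibitor above 0 at this scaling. Spink2, known as an acrosin inhibitor of testis, had a log2 ratio of -0.13. Spink8 was well above background on the PBS array only, with 21.5 against 42.3. It was at least 2.06-fold lower by the bound used for Klk12 and Klk9, which takes its dim PBS signal as exact. The secreted cystatin genes Cst8, Cst9, Cst10, Cst11, Cst12, Cst13 and Cstl1, and Spink4, Spink10 and Spink12, were not well above background on either array.

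Markers of the growing follicle were set beside the kallikreins and Cst6. Inner root sheath markers had a median log2 ratio of -0.70 over 9 genes, 2 at least 2-fold lower, from Krt26 at -1.21 to Krt28 at -0.40, and a summed ratio of -0.61. Hair shaft markers had a median of -0.66 over 12 measured genes, 5 at least 2-fold lower, from Krt34 at -2.44 to Krt35 at 0.07, and a summed ratio of -0.12. Krt35 alone gave 72400 of the summed signal of 101111 with FGF18. The part of either compartment in the Cst6 and kallikrein values was not tested.

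**Figure D5:**
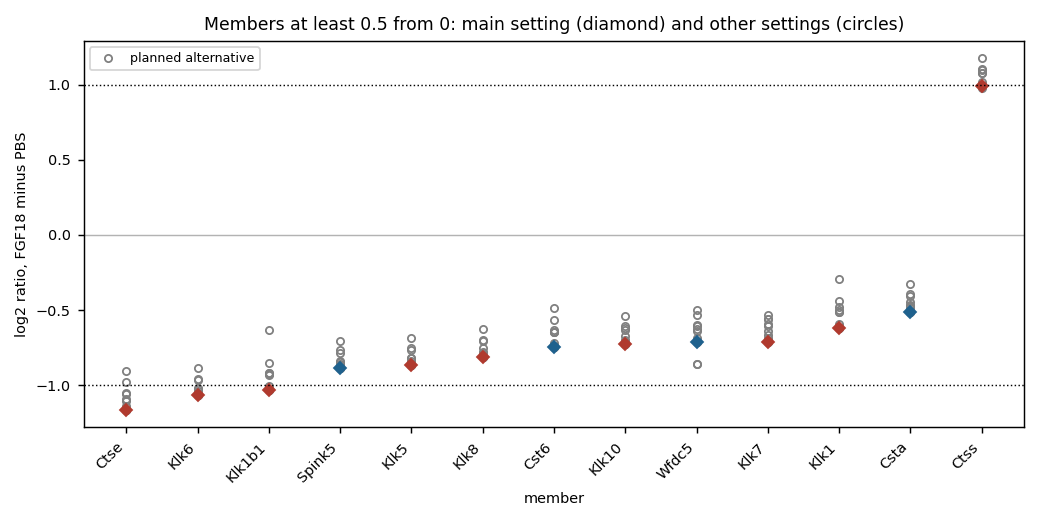
Log2 ratio, FGF18 minus PBS (vertical axis), of the 13 members at least 0.5 from 0, as reported (diamonds, proteases red and inhibitors blue) and under each of the other settings (open circles); dotted lines mark 2-fold. All 13 keep their sign, Ctss spans from 0.98 to 1.18 across the 2-fold line, and Ctse (from -1.16 to -0.91), Klk6 (from -1.07 to -0.89) and Klk1b1 (from -1.03 to -0.63) cross it on the lower side.

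Members at least 0.5 below 0 kept their direction under the settings tried, but for some the side of the 2-fold line changed. Members nearer 0 did not all keep it: 35 of 41 lay below 0 as reported, 30 with scaling to the median and 24 without scaling. Klk6 ranged from -1.07 to -0.89 and was past 2-fold in 9 of 12 alternatives. Klk1b1 ranged from -1.03 to -0.63 and was past 2-fold in 5 of 11, being dropped by the filter for signals over 100. Klk5 stayed between -0.87 and -0.69, Klk8 between -0.81 and -0.63, and Spink5 between -0.89 and -0.71. Without scaling between the arrays the median of all genes moved from -0.07 to 0.11, and all of these genes were still below 0.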

How the data were processed

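Back skin injected with FGF18 or with PBS was profiled on 2 single-colour Agilent arrays, 1 per treatment, with groups taken from the source names. Per the labels' protocols, mRNA was purified with oligo(dT) and labelled as cRNA with Cy3. The design text says RNA was pooled per group, whereas the extraction protocol says mice were extracted separately. Per the file headers, images were read with Feature Extraction 9.5.3.1 (protocol GE1-v5_95_Feb07, design 014868). The deposited intensity values are spot means, local background, a background-subtracted and detrended processed signal and its error. Among the other deposited columns are flags for spots well above background. The deposited series value table is a ratio: set against the scanner files, it was the processed signal over the array median (83.8 for FGF18, 80.0 for PBS), with departures of at most 0.0078 on the log2 scale, linear and in the same direction. Other scaling by the authors: not given in the sources used. There were 0 unmapped value columns.

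Log2 processed signals were reduced by each array's 75th percentile over gene spots. Outlier-flagged spots and the 1639 control spots were dropped, and replicate spots and then probes of a gene were averaged. A probe was called measured if no less than a 0.5 share of its spots lay well above background. For genes measured on 1 array, the dim side was set to its own signal or the array's floor (23.3 for FGF18, 24.2 for PBS), whichever was higher. Values were computed in Python 3.11.15 (pandas 2.3.3, numpy 2.4.6), with R 4.3.3 and limma 3.58.1 for the alternatives. The code was tested on simulated data.

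Members keep the names in the files. Other probes were renamed through RefSeq's GRCm38.p6 gene table: 23292 by accession, 6727 by symbol and 2907 by synonym, while 8158 kept the name in the files. The members, the comparison lists and the markers were chosen with earlier results of these data known. Described with both signals were members at least 0.5 from 0, those whose probes disagreed and a set of epidermal and lysosomal genes. Other members are given by ratio, range or name, and lists by counts, median, highest and lowest gene. Some list genes were named after their values were seen. These were Cdsn, other list genes past 2-fold, S100a9, the neutrophil granule genes and list genes not measured on both arrays. Alternatives were 5 other ways of scaling, normexp with an offset of 50, the value table, 3 filters on dim probes, 2 ways to choose a gene's probe, and thresholds of 1.5 and 3.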

Additional observations from a re-analysis of the deposited data

How the results depend on the processing

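No paired analysis was possible because each group has 1 array. Of 488 member values under the 12 other settings at the 2-fold threshold, 485 moved by no more than the scanner software's error. The other 3 moved further, and 0 of the members past 2-fold changed sign. Of 41 members, 29 kept their sign in every alternative, and the other 12 all lay within 0.25 of 0. Small movement was largely built into these settings, which all reuse the same 2 arrays. Some shift every gene by nearly the same amount, and the filters and probe choices leave most member values unchanged. The count of proteases at least 2-fold higher, 0 as reported, became 1 (Ctss) with scaling to the median, no scaling, the 75th percentile of detected probes, quantile normalization, loess and the series value table, 1 when genes of 1 array were included and 1 at 1.5-fold. Without a filter on dim probes it became 3 of 45 proteases. The share of all genes at least 2-fold higher also rose, from 1.54% as reported to 3.19% with genes of 1 array and 2.86% without a filter. The count at least 2-fold lower, 3 as reported, was 1 with scaling to the median, normexp or the value table, 0 without scaling or at 3-fold, 2 with quantile normalization, loess or signals over 100, 4 with genes of 1 array, 5 without a filter and 8 at 1.5-fold. The count of inhibitors at least 2-fold lower, 0 as reported, was 1 without a filter or with genes of 1 array, and 3 at 1.5-fold. Among all genes the share at least 2-fold lower was 0.55% without scaling, 0.41% with normexp, 2.48% with genes of 1 array and 3.25% without a filter. Relative to all genes, the protease and inhibitor medians came to -0.055 and -0.053 without a filter, which brings in the 27 members not measured on both arrays. In splits added after seeing the data, the protease median relative to all genes was -0.28 for kallikreins alone and 0.0063 for cathepsins alone, which had 1 gene at least 2-fold lower. It was -0.12 over the 21 proteases left without the Klk1 and Klk1b kallikreins. Signals near the floor limit what the dim kallikreins can show.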

Other observations

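The 8 measured mast cell markers had a median of -0.02 on the log2 scale, from Tpsb2 at -0.35 to Hdc, which makes histamine, at 1.48, the 1 gene past 2-fold. Sebaceous gland markers had a median of 0.02 over 10 genes, from Awat2 at -0.91 to Scd1 at 0.36. Skeletal muscle markers had a median of 0.16 over 12 genes, from Myh1 at -0.21 to Actn3 at 0.85, and adipocyte markers one of 0.24 over 11 genes, from Cfd at -0.12 to Thrsp at 0.52. In the last 3 lists, 0 genes were past 2-fold.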
